A study of Mus musculus with 12 samples.

Results

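The core pluripotency genes outside the naive network were followed here as 10 genes, Pou5f1, Sox2, Sall4, Lin28a, Utf1, Tcl1, Fbxo15, Gdf3, Tdh and L1td1. They were taken by gene symbol, and they are 10 of the 54446 gene identifiers listed for each library. All 10 passed the filter on low values, a mean over all 12 libraries of 1 TPM or more, and so are among the 15727 genes tested. TPM, the abundance of a gene's transcripts on a fixed common total, is a share of a library's RNA corrected for transcript length, so levels of different genes can be set side by side.

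Total RNA had been sequenced from 2 mouse embryonic stem (ES) cell lines, the KH cells, wild-type per the study's text, and DNMT3ABKO cells, in which the de novo DNA methyltransferase genes Dnmt3a and Dnmt3b are knocked out. Both lines were collected untreated (0 h) and after 72 and 144 h of mTOR inhibition (mTORi) by the compound INK128, under which ES cells pause much as the blastocyst does in diapause. Each of the 6 groups had 2 replicates. The labels do not say whether these came from separate cultures, while the study states in general terms that experiments were independently repeated. The labels carry the name E14 before both line names, whereas the study's methods call the wild-type line KH2. Per those methods, both lines were grown on inactivated fibroblasts (feeders) and sorted before RNA extraction. No culture without INK128 was sampled at 72 or 144 h, so mTORi and time in culture cannot be told apart. Each genotype is 1 line, so genotype and line cannot be told apart either.

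ES cells keep the capacity to form all tissues of the embryo through a small set of transcription factors that bind each other's regulatory regions. OCT4 (encoded by Pou5f1) and SOX2 bind DNA side by side at many of these regions and are needed in both the naive state of the early epiblast and the primed state after implantation. SALL4 and UTF1 work with them on chromatin, LIN28A and L1TD1 bind RNA, TCL1 and GDF3 act in signalling, and Fbxo15 and Tdh are highly active in ES cells.

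Sequencing depth was not analysed here, because TPM does not retain it, and each library had 15178 to 15811 genes at 1 TPM or above. All 8 ES cell markers examined (Nanog, Zfp42, Esrrb, Klf4, Dppa5a, Alpl, Tdgf1 and Fgf4) were present in every library, at 3045 to 3260 TPM in sum at 0 h and 4875 to 5369 TPM under mTORi. Nanog did not share that rise in DNMT3ABKO cells, with log2 fold changes of -0.49 at 72 h and -0.03 at 144 h against 0 h. The 12 markers of differentiated lineages summed to 18.3 to 53.5 TPM. That low sum hides opposite changes at 144 h against 0 h. The neural marker Sox1 rose most in both lines (log2 fold change of 3.25 in KH and 1.90 in DNMT3ABKO cells). Fgf5 fell most in KH cells (-2.88) and T in DNMT3ABKO cells (-2.48). Dnmt3a was at 54.7 to 144 TPM in the KH libraries and 7.35 to 21.9 TPM in the DNMT3ABKO libraries, and Dnmt3b was at 142 to 258 TPM and 12.7 to 27.5 TPM. The deleted parts of both genes are not given in the sources used here, so their remaining reads do not check the knockout itself. The 16 fibroblast markers summed to 1286 to 1368 TPM in KH cells and 1513 to 1598 TPM in DNMT3ABKO cells at 0 h, 277 to 354 TPM at 72 h and 81.3 to 88.0 TPM at 144 h, and none of them was listed at 0 in any library. All 14 that passed the filter fell in both lines at both times. Their sum was at most 0.160% of a library's TPM, and the part of feeder RNA as a whole in the rise of the core genes was not tested. In bulk RNA, fewer cells of a type and less RNA per cell cannot be told apart, and TPM gives no amount of RNA per cell. The DNMT3ABKO replicates at 0 h stood apart from each other more than the other pairs (r = 0.985 across the tested genes, against 0.994 to 0.996), so for the comparisons that use these libraries each call gained or lost without 1 of them is given with that value.

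Pou5f1 was the most abundant of the 10 genes in every library, between 786 and 1132 TPM, and ranked between 81 and 131 among 21918 protein-coding genes. L1td1 (347 to 504 TPM), Utf1 (224 to 402 TPM), Tdh (221 to 389 TPM), Lin28a (219 to 335 TPM), Sox2 (159 to 337 TPM) and Sall4 (208 to 320 TPM) followed, with ranges over the libraries that overlapped each other. Fbxo15 spanned the widest range, from 98.8 to 285 TPM, a 2.88-fold difference between its lowest and highest library, against 1.44-fold for Pou5f1. Gdf3 (60.6 to 97.8 TPM) and Tcl1 (39.9 to 72.1 TPM) were the least abundant. Together the 10 genes made up 0.258 to 0.292% of all TPM at 0 h and 0.322 to 0.358% under mTORi.

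**Figure D1:**
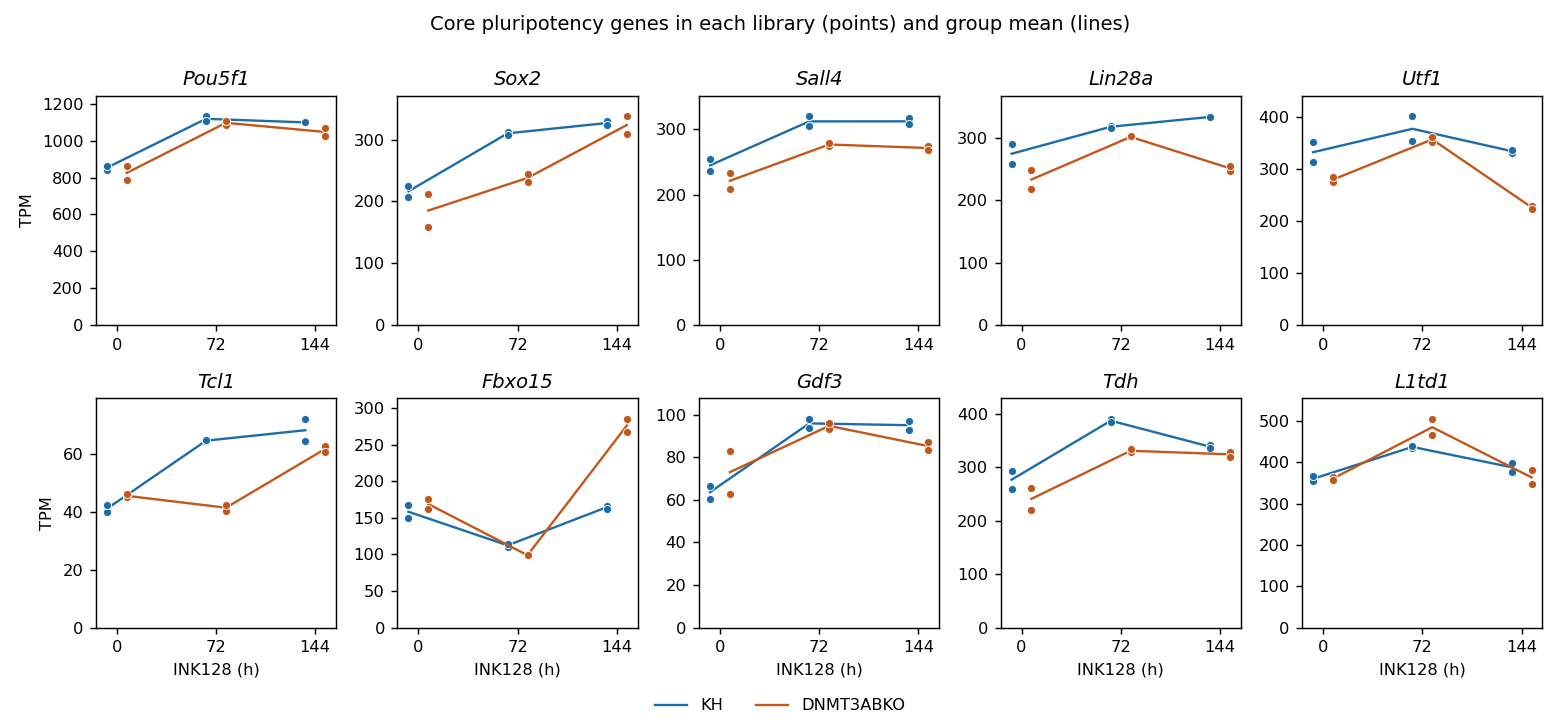
TPM of each core pluripotency gene (vertical axes, from 0) at 0, 72 and 144 h of INK128 (horizontal axes), with 1 point per library and a line through the group means, for KH (blue) and DNMT3ABKO (orange) cells. Pou5f1 rose from 843 and 863 TPM to 1099 TPM or more in all treated KH libraries, whereas Fbxo15 dipped at 72 h in both lines and reached 267 and 285 TPM at 144 h in DNMT3ABKO cells.

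Most of the core genes made up a larger share of TPM under mTORi than at 0 h, by modest factors. With RNA standards added to the samples as a reference, the study reported lower global transcription under mTORi in wild-type and Dnmt3a/b knockout cells. A rise in TPM here is thus a rise in share and need not be a rise in amount per cell. At 72 h, 8 of the 10 rose and 1, Fbxo15, fell in KH cells, where 47.8% of all tested genes were called (28.3% higher, 19.5% lower). In DNMT3ABKO cells 8 also rose and 1 fell at 72 h, where 56% of all genes were called (34.3% higher, 21.6% lower). At 144 h against 0 h, 7 rose and 0 fell in KH cells (51.3% of all genes called, 27.4% higher and 23.9% lower), with a positive log2 fold change for all 10. In DNMT3ABKO cells 6 rose and 1, Utf1, fell (57.6% called, 31.4% higher and 26.2% lower). The median log2 fold change of the 10 genes was 0.37 and 0.32 in KH cells at 72 and 144 h and 0.37 and 0.32 in DNMT3ABKO cells, beside 0.08, 0.05, 0.12 and 0.05 for all tested genes. Scaling each library by its median ratio to all libraries moved the median of all genes by -0.11 for DNMT3ABKO cells at 72 h, and there 29.5% of all genes were called higher and 29.7% lower (24.99 and 27.5% in KH cells at 72 h). The core genes then had 8 rises and 2 falls (Tcl1 being the added fall) in DNMT3ABKO cells and 6 rises and 1 fall in KH cells at 72 h, without Lin28a and L1td1. The share of core genes that rose was thus above the share of all genes that rose in each of these 4 comparisons and under either scaling at 72 h, while a large part of the transcriptome moved, and the 2 comparisons within a line share the same 0 h libraries. These shares were not compared by a test, and the members were chosen with earlier results of these data known. All 10 stood at 39.9 TPM or more in every library, whereas the tested genes reach down to a mean of 1 TPM, where log2(TPM + 1) understates changes. At 72 h against 0 h the libraries of the groups did not overlap for 10 of the 10 core genes in either line (77% of all genes in KH cells and 73.5% in DNMT3ABKO cells). At 144 h against 0 h this held for 8 of 10 in each line (77.7 and 73.8% of all genes). Calls are at an adjusted p under 0.05 from limma over all tested genes, and fold changes are on the log2(TPM + 1) scale with standard errors (SE).

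Between 72 and 144 h the lines looked different in number of calls. In KH cells 1 core gene was called, Fbxo15, which rose (22.9% of all genes called, 7.24% higher and 15.6% lower), and Tdh (-0.19) was called as well without either DNMT3ABKO library at 0 h. In DNMT3ABKO cells 3 rose (Fbxo15, Tcl1 and Sox2) and 3 fell (Utf1, L1td1 and Lin28a), where 27.3% of all genes were called (8.81% higher, 18.5% lower). The libraries of the groups did not overlap for 7 of 10 core genes in KH cells (70.3% of all genes) and 8 of 10 in DNMT3ABKO cells (70.6%). Whether a gene's step differed between lines was tested for each gene and is given with the line differences.

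**Figure D2:**
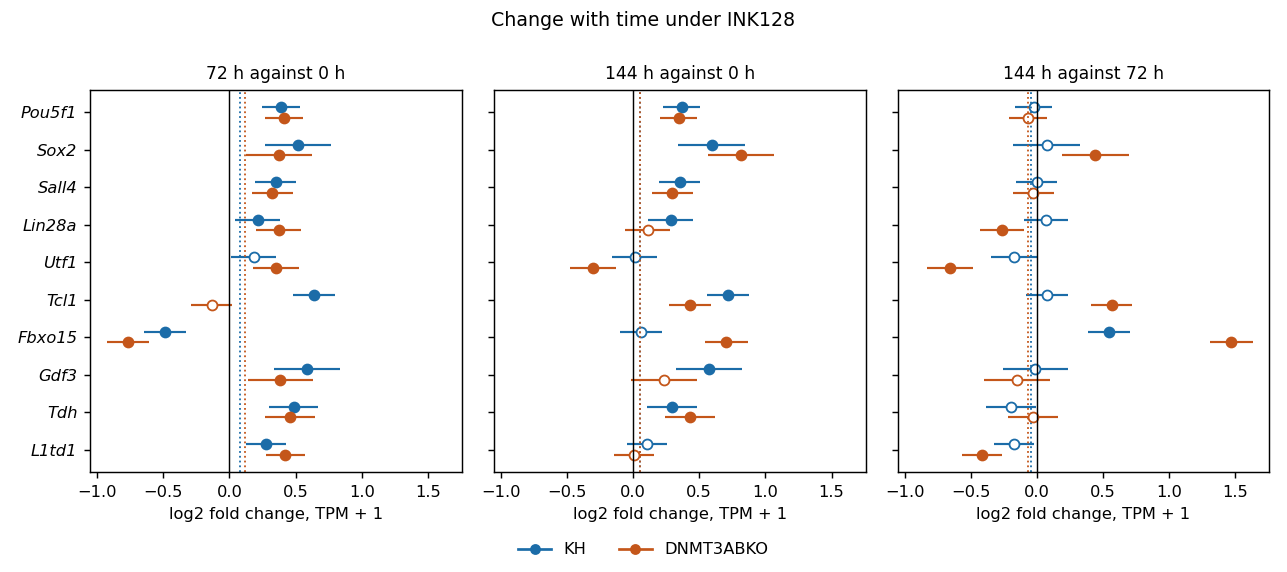
Log2 fold change in TPM + 1 (horizontal axis) of each core pluripotency gene between time points in KH (blue) and DNMT3ABKO (orange) cells, with 95% confidence intervals, filled circles for genes called by limma and dotted lines for the median of all tested genes. Most genes lie to the right of both dotted lines at 72 and 144 h against 0 h, and in the step from 72 to 144 h Fbxo15 lies at 0.55 in KH and 1.47 in DNMT3ABKO cells.

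Among the transcription factors, Pou5f1 (ENSMUSG00000024406.16, mm10 chr17:35506018-35510772, plus strand) encodes OCT4, the POU domain factor without which no pluripotent cells form. Its replicates stood at 843 and 863 TPM in KH cells at 0 h, 1132 and 1106 TPM at 72 h and 1100.2 and 1099 TPM at 144 h. In DNMT3ABKO cells they stood at 865 and 786 TPM, 1086 and 1109 TPM, and 1070.3 and 1025 TPM. All 8 treated libraries were above all 4 untreated ones, and the lines overlapped at 0 and 72 h, while at 144 h both DNMT3ABKO libraries were below both KH libraries. Pou5f1 rose by 0.39 ± 0.06 (SE) at 72 h in KH cells (adjusted p = 0.000751) and by 0.41 ± 0.06 in DNMT3ABKO cells (adjusted p = 0.000376). The rise at 144 h against the same 0 h libraries was 0.37 ± 0.06 (adjusted p = 0.000870) and 0.34 ± 0.06 (adjusted p = 0.00100). The step from 72 to 144 h was -0.02 (95% interval -0.17 to 0.12) and -0.07 (-0.21 to 0.07), not called in either line. A noncoding gene on the opposite strand, Gm19553, reached 4.41 TPM at most.

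Sox2 (ENSMUSG00000074637.7, chr3:34650405-34652461, plus strand), the HMG box partner of OCT4, stood at 208 and 225 TPM in KH cells at 0 h, 313 and 307 TPM at 72 h and 331 and 323 TPM at 144 h. The DNMT3ABKO replicates stood at 159 and 211 TPM, 245 and 231 TPM, and 309.6 and 337 TPM. Treated libraries were above untreated ones in each line, the lines overlapped at 144 h but not at 72 h, and the DNMT3ABKO replicates at 0 h were the most unequal of any group for this gene. In KH cells Sox2 rose by 0.52 ± 0.11 at 72 h (adjusted p = 0.00408) and 0.59 ± 0.11 at 144 h (adjusted p = 0.00158). In DNMT3ABKO cells it rose by 0.37 ± 0.11 at 72 h (adjusted p = 0.0175), by 0.82 ± 0.11 at 144 h (adjusted p = 0.000162) and by 0.44 ± 0.11 from 72 to 144 h (adjusted p = 0.0160). The difference between lines was not called for the 72 h response (-0.14, adjusted p = 0.702) or the step (0.37, adjusted p = 0.270). The 72 h call in DNMT3ABKO cells was lost without replicate 1 of their 0 h group (0.17, adjusted p = 0.0727) or replicate 1 of their 72 h group (adjusted p = 0.0959), and the step was not called without either 72 h library or replicate 2 at 144 h (adjusted p of up to 0.109). Sox2 lies within the long noncoding gene Sox2ot on the same strand, which stood at 2.84 to 7.49 TPM, so few reads could be shared.

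Sall4 (ENSMUSG00000027547.17, chr2:168748332-168767943, minus strand) encodes a zinc finger factor that binds with OCT4 in ES cells. It stood at 236 and 254 TPM in KH cells at 0 h, 320 and 305 TPM at 72 h and 317 and 308 TPM at 144 h, and in DNMT3ABKO cells at 208 and 234 TPM, 275 and 279 TPM, and 275 and 268 TPM. Treated libraries were above untreated ones in each line, and each DNMT3ABKO group lay below the KH group of its time. Sall4 rose by 0.35 ± 0.07 in KH cells at both 72 h (adjusted p = 0.00244) and 144 h (adjusted p = 0.00200). The rise in DNMT3ABKO cells was 0.33 ± 0.07 at 72 h (adjusted p = 0.00286) and 0.30 ± 0.07 at 144 h (adjusted p = 0.00433), and neither was called when only the groups of the contrast were fitted (adjusted p = 0.0512 and 0.0688). From 72 to 144 h the change was 0.00 in KH cells (95% interval -0.15 to 0.16) and -0.03 in DNMT3ABKO cells (-0.18 to 0.13).

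Utf1 (ENSMUSG00000047751.9, chr7:139943789-139945112, plus strand), a chromatin-bound factor and known target of OCT4 and SOX2, went another way. In KH cells its replicates stood at 313 and 353 TPM at 0 h, 402 and 354 TPM at 72 h and 332 and 338 TPM at 144 h. In DNMT3ABKO cells they stood at 275 and 285 TPM, 353 and 363 TPM, and 229.8 and 224 TPM. The DNMT3ABKO libraries at 144 h were below all others, including the untreated libraries of both lines. In DNMT3ABKO cells Utf1 rose by 0.35 ± 0.08 at 72 h (adjusted p = 0.00331), then fell by 0.66 from 72 to 144 h (SE 0.08, adjusted p = 0.000171), and ended below its 0 h level by -0.30 ± 0.08 (adjusted p = 0.00674; 0.0604 with array weights). The difference between lines was not called for the 72 h response (0.17, adjusted p = 0.475) or the 144 h response (-0.32, adjusted p = 0.113). In KH cells the change of Utf1 at 72 h was 0.18 ± 0.08 (adjusted p = 0.0755) and at 144 h 0.01 ± 0.08, neither called. The 72 h value was 0.27 and called without replicate 2 of either KH group in it (adjusted p = 0.0333 and 0.0403).

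Lin28a (ENSMUSG00000050966.9, chr4:134003330-134018841, minus strand) encodes an RNA-binding protein that blocks maturation of the let-7 microRNAs. Its KH replicates stood at 259 and 291 TPM at 0 h, 320.2 and 316 TPM at 72 h and 335 and 333 TPM at 144 h, and its DNMT3ABKO replicates at 219 and 248 TPM, 301 and 303 TPM, and 247 and 256 TPM. At 144 h the KH libraries were above their untreated ones, and the DNMT3ABKO libraries overlapped with theirs, but the difference between the lines' 144 h responses was not called (-0.17, adjusted p = 0.376). Lin28a rose at 72 h by 0.37 ± 0.08 in DNMT3ABKO cells (adjusted p = 0.00209) and by 0.21 ± 0.08 in KH cells (adjusted p = 0.0400). The KH value was called in 3 of the 12 fits that each left out 1 library, was 0.13 without replicate 1 of the KH 0 h group, and was not called with a replicate block (adjusted p = 0.0531). At 144 h the change was 0.28 ± 0.08 in KH cells (adjusted p = 0.0103; 0.0811 without replicate 1 at 0 h and 0.0537 without replicate 1 at 144 h) and 0.11 ± 0.08 in DNMT3ABKO cells (adjusted p = 0.239; 0.0288 without replicate 2 at 0 h). From 72 to 144 h it fell by 0.26 in DNMT3ABKO cells (SE 0.08, adjusted p = 0.0265), a call that was lost without any 1 of the 4 libraries compared (adjusted p up to 0.141).

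L1td1 (ENSMUSG00000087166.9, chr4:98726734-98738480, plus strand), an RNA-binding protein derived from a LINE-1 element, had a peak at 72 h. It stood at 354 and 367 TPM in KH cells at 0 h, 435 and 439.9 TPM at 72 h and 399 and 378 TPM at 144 h, and in DNMT3ABKO cells at 364 and 358 TPM, 504 and 466 TPM, and 347 and 380.5 TPM. In both lines the 72 h libraries were above all others of the line. L1td1 rose at 72 h by 0.28 ± 0.07 in KH cells (adjusted p = 0.00695; 0.0570 under median-ratio scaling) and by 0.42 ± 0.07 in DNMT3ABKO cells (adjusted p = 0.000470). It then fell by 0.42 in DNMT3ABKO cells from 72 to 144 h (SE 0.07, adjusted p = 0.00131), while the KH step was -0.17 ± 0.07 (adjusted p = 0.0965). The difference between lines in that step was not called (-0.24, adjusted p = 0.211). At 144 h against 0 h the change was 0.11 ± 0.07 in KH cells (adjusted p = 0.211) and 0.01 ± 0.07 in DNMT3ABKO cells (adjusted p = 0.923).

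Among the signalling genes, Tcl1 (ENSMUSG00000041359.14, chr12:105216750-105222793, minus strand) encodes a co-activator of the kinase AKT, which lies upstream and downstream of mTOR. Its KH replicates stood at 39.9 and 42.3 TPM at 0 h, 64.4 and 64.9 TPM at 72 h and 72.1 and 64.5 TPM at 144 h. Its DNMT3ABKO replicates stood at 45.1 and 46.0 TPM, 40.5 and 42.4 TPM, and 63.0 and 60.6 TPM. KH cells were thus at their raised level at 72 h, when both DNMT3ABKO libraries lay below both of their untreated ones. In KH cells Tcl1 rose by 0.64 ± 0.07 at 72 h (adjusted p = 7.51e-05) and 0.72 ± 0.07 at 144 h (adjusted p = 2.29e-05), the largest rise among the 10 genes in that line at both times. In DNMT3ABKO cells the 72 h change was -0.13 ± 0.07 (adjusted p = 0.132; -0.26, adjusted p = 0.0105, under median-ratio scaling), and it was followed by a rise of 0.56 ± 0.07 from 72 to 144 h (adjusted p = 0.000257). The 144 h level was 0.43 ± 0.07 above 0 h (adjusted p = 0.000485). The neighbouring relatives Tcl1b1, Tcl1b3, Tcl1b4 and Tcl1b5 were listed at 0 in all libraries, and Tcl1b2 reached 0.243 TPM at most.

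Gdf3 (ENSMUSG00000030117.5, chr6:122605403-122610087, minus strand) encodes a secreted ligand of the TGF-beta family. It stood at 60.6 and 66.5 TPM in KH cells at 0 h, 97.8 and 93.9 TPM at 72 h and 92.9 and 97.2 TPM at 144 h, and in DNMT3ABKO cells at 62.9 and 83.1 TPM, 93.3 and 96.2 TPM, and 83.3 and 87.1 TPM. The treated libraries were above the untreated ones in each line, with a narrow gap between 83.1 and 83.3 TPM in DNMT3ABKO cells at 144 h. Gdf3 rose by 0.59 ± 0.11 at 72 h (adjusted p = 0.00184) and 0.57 ± 0.11 at 144 h (adjusted p = 0.00171) in KH cells. In DNMT3ABKO cells it rose by 0.38 ± 0.11 at 72 h (adjusted p = 0.0138), a call lost without replicate 1 at 0 h (0.19, adjusted p = 0.0516) or replicate 2 at 72 h (adjusted p = 0.0696). Its change at 144 h was 0.23 ± 0.11 (adjusted p = 0.0956) and was 0.43 without replicate 2 at 0 h (adjusted p = 0.000559).

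Fbxo15 (ENSMUSG00000034391.11, chr18:84934782-84981472, plus strand), an F-box protein gene long used as a reporter of pluripotency, had the largest movements. The KH replicates stood at 149 and 167 TPM at 0 h, 110.1 and 115 TPM at 72 h and 167 and 163 TPM at 144 h. The DNMT3ABKO values were 163 and 175 TPM, 98.8 and 99.2 TPM, and 285 and 267 TPM. The 4 libraries at 72 h were the lowest of the 12, and the DNMT3ABKO libraries at 144 h the highest. Fbxo15 fell by 0.49 in KH cells (SE 0.07, adjusted p = 0.000427) and by 0.76 in DNMT3ABKO cells (SE 0.07, adjusted p = 1.62e-05) at 72 h. From 72 to 144 h it rose by 0.55 ± 0.07 in KH cells (adjusted p = 0.000553) and by 1.47 ± 0.07 in DNMT3ABKO cells (adjusted p = 8.29e-07), a 2.77-fold rise of TPM + 1. At 144 h the KH level was 0.06 ± 0.07 from that at 0 h (adjusted p = 0.523), whereas the DNMT3ABKO level was 0.71 ± 0.07 above it (adjusted p = 1.88e-05). The gene Timm21 lies within Fbxo15 on the opposite strand at 11.6 to 32.1 TPM. The settings for StringTie listed in the study's methods include no strand option, and whether reads of Timm21 were counted for Fbxo15 was not tested.

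Tdh (ENSMUSG00000021953.14, chr14:63492347-63509092, minus strand) encodes threonine dehydrogenase, the mitochondrial enzyme that starts threonine breakdown to glycine and acetyl-CoA in mouse ES cells. It stood at 259.7 and 293 TPM in KH cells at 0 h, 389 and 384 TPM at 72 h and 341 and 335 TPM at 144 h, and in DNMT3ABKO cells at 221 and 261 TPM, 327 and 333 TPM, and 328 and 319 TPM. All 8 treated libraries were above all 4 untreated ones. At 72 h Tdh rose by 0.49 ± 0.08 in KH cells (adjusted p = 0.00115) and 0.46 ± 0.08 in DNMT3ABKO cells (adjusted p = 0.00114). At 144 h it was 0.43 ± 0.08 above 0 h in DNMT3ABKO cells (adjusted p = 0.00151) and 0.29 ± 0.08 above it in KH cells (adjusted p = 0.0151). The KH call at 144 h was lost without replicate 1 at 0 h (0.21, adjusted p = 0.114) or without either KH library at 144 h (adjusted p = 0.0760 and 0.0569).

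The lines were compared next. At 0 h, 0 of the 10 core genes were called by limma (9.06% of all genes called, 4.92% higher and 4.14% lower), and 3 (Utf1, Lin28a and Tdh, all lower in DNMT3ABKO cells) had an unadjusted p under 0.05. The differences ranged from -0.25 for Utf1 (95% interval -0.42 to -0.07) to 0.18 for Gdf3 (-0.06 to 0.43), and the libraries of the lines did not overlap for 4 of 10 (41.4% of all genes). This count rests on the unequal DNMT3ABKO replicates. Without replicate 2 of that group, Sox2 (-0.44), Lin28a (-0.33), Tdh (-0.32), Utf1 (-0.27) and Sall4 (-0.23) were called lower in DNMT3ABKO cells. Without replicate 1, Gdf3 was called higher (0.38). The share of all genes called without either library is not given here, so these calls are no result about the core genes as a set.

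At 72 h, 2 of the 10 were called, both lower in DNMT3ABKO cells, where 19.3% of all genes were called (9.26% higher, 10% lower), and the libraries did not overlap for 7 of 10 (70.1% of all genes). Tcl1 was lower by -0.63 ± 0.07 (adjusted p = 0.000183), and no library of one line overlapped the other. Sox2 was lower by -0.38 ± 0.11 (adjusted p = 0.0408). The Sox2 call held in 2 of the 12 fits that left out 1 library, those without a DNMT3ABKO 0 h library, and its adjusted p reached 0.201 without replicate 2 of the DNMT3ABKO 72 h group. For Tcl1 the call held in all 12 (-0.66 to -0.60). Sall4 (-0.17) and Tdh (-0.23) were also called lower without either DNMT3ABKO 0 h library.

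At 144 h, 3 of the 10 were called, where 26.5% of all genes were called (11% higher, 15.5% lower) and the libraries did not overlap for 8 of 10 (70.7% of all genes). Fbxo15 was higher in DNMT3ABKO cells by 0.74 ± 0.07 (adjusted p = 4.52e-05), or 1.67-fold. Utf1 was lower by -0.56 ± 0.08 (adjusted p = 0.000540) and Lin28a by -0.41 ± 0.08 (adjusted p = 0.00327). Each of these 3 calls held in all 12 fits that left out 1 library. Pou5f1 differed by -0.05 at 0 h (95% interval -0.19 to 0.09), -0.03 at 72 h (-0.17 to 0.11) and -0.07 at 144 h (-0.21 to 0.07), so all 3 intervals lay between -0.21 and 0.11. Sox2 at 144 h differed by -0.02 (-0.27 to 0.24), a wider interval. The remaining 5 genes, Sall4, Tcl1, Gdf3, Tdh and L1td1, had differences between -0.20 and -0.06 at 144 h, none called, but Sall4 (-0.20, adjusted p = 0.0569) was called without either DNMT3ABKO 0 h library.

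**Figure D3:**
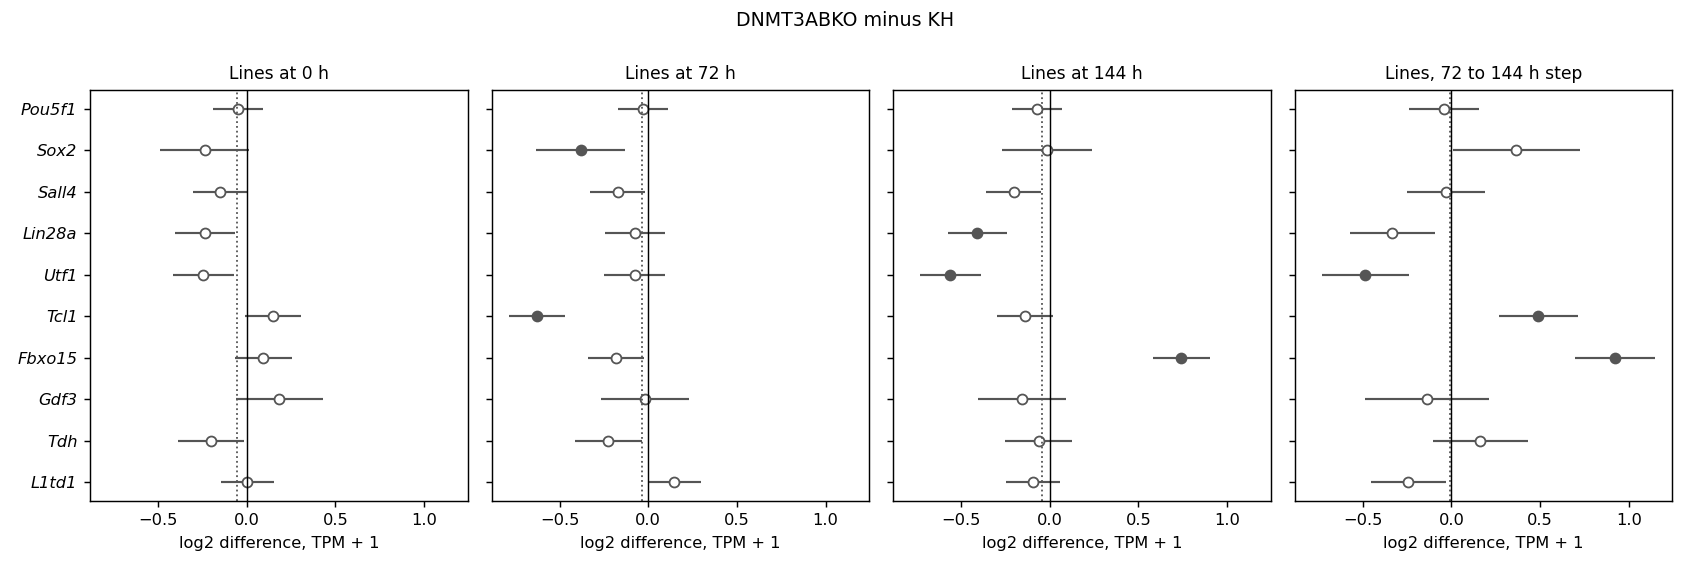
Log2 difference in TPM + 1 (horizontal axis) of each core pluripotency gene, DNMT3ABKO minus KH, at 0, 72 and 144 h and for the step from 72 to 144 h, with 95% confidence intervals, filled circles for genes called by limma and dotted lines for the median of all genes. Tcl1 stands apart at 72 h (-0.63), Utf1 (-0.56) and Fbxo15 (0.74) at 144 h, and the same genes are called in the step.

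Whether the lines changed unequally from 0 h to 72 or 144 h of mTORi was tested as the difference between their responses. For the 72 h response 1 of the 10 core genes was called (5.23% of all genes called, 3.38% higher and 1.86% lower, and 3.47% called with a replicate block). This was Tcl1, whose response was lower in DNMT3ABKO cells by -0.78 ± 0.10 (adjusted p = 0.00200), and the call held in all 12 fits that left out 1 library (-0.82 to -0.74, adjusted p of 0.00196 to 0.0162). For the 144 h response 1 was called (8.59% of all genes called, 4.89% higher and 3.7% lower). This was Fbxo15, whose response was higher in DNMT3ABKO cells by 0.65 ± 0.10 (adjusted p = 0.00318), again called in all 12 such fits (0.56 to 0.73). Both tests use the 0 h libraries. Without replicate 1 of the DNMT3ABKO 0 h group Gdf3 was also called lower in both responses (-0.40 and -0.54), and without replicate 2 Sox2 was called higher in the 144 h response (0.43). Pou5f1 had differences of 0.02 (95% interval -0.18 to 0.22) and -0.02 (-0.22 to 0.18) in the 72 and 144 h responses.

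The step from 72 to 144 h uses no 0 h library, and its difference between lines was added after the data had been seen. It was called for 3 of the 10 genes (5.33% of all genes called, 3.08% higher and 2.25% lower). The step was higher in DNMT3ABKO cells for Fbxo15 by 0.92 ± 0.10 (adjusted p = 0.000438) and for Tcl1 by 0.49 ± 0.10 (adjusted p = 0.0192), and lower for Utf1 by -0.48 ± 0.11 (adjusted p = 0.0315). Fbxo15 was called in all 12 fits that left out 1 library, and Tcl1 and Utf1 in 5 of 12 each. With a replicate block Fbxo15 was the 1 gene called, and Tcl1 (adjusted p = 0.0611) and Utf1 (adjusted p = 0.0826) were not. The Tcl1 call was lost without any of the 72 and 144 h libraries but KH replicate 1 at 144 h, and the Utf1 call without any of them but KH replicate 1 at 72 h, with an adjusted p of up to 0.0947 for Tcl1 and 0.140 for Utf1, while their values ran from 0.41 to 0.57 and from -0.57 to -0.39. Without either DNMT3ABKO 0 h library, Sox2 (0.37) and Lin28a (-0.33) were called too. At 144 h Tcl1 itself no longer differed by a called amount (-0.14, 95% interval -0.30 to 0.02).

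Ratios of 2 genes within a library do not depend on the library's total, so each gene was also expressed as a percentage of Pou5f1. In untreated KH cells Fbxo15 stood at 17.7 and 19.4% of Pou5f1, followed by 9.72 and 10.4% after 72 h and 15.2 and 14.8% after 144 h, and in DNMT3ABKO cells at 18.8 and 22.3%, 9.10 and 8.95%, and 26.6 and 26.1%. Utf1 stood at 37.1 and 40.9%, 35.5 and 32.0%, and 30.2 and 30.8% in KH cells, and at 31.8 and 36.3%, 32.5 and 32.7%, and 21.5 and 21.8% in DNMT3ABKO cells. Tcl1 stood at 4.73 and 4.90%, 5.69 and 5.87%, and 6.55 and 5.86% in KH cells, and at 5.22 and 5.86%, 3.73 and 3.83%, and 5.88 and 5.92% in DNMT3ABKO cells. The dip of Fbxo15 at 72 h, the low Utf1 of DNMT3ABKO cells at 144 h and their low Tcl1 at 72 h were therefore also present relative to Pou5f1. Sall4, in contrast, stayed between 24.1 and 29.7% of Pou5f1 in all 12 libraries.

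**Figure D4:**
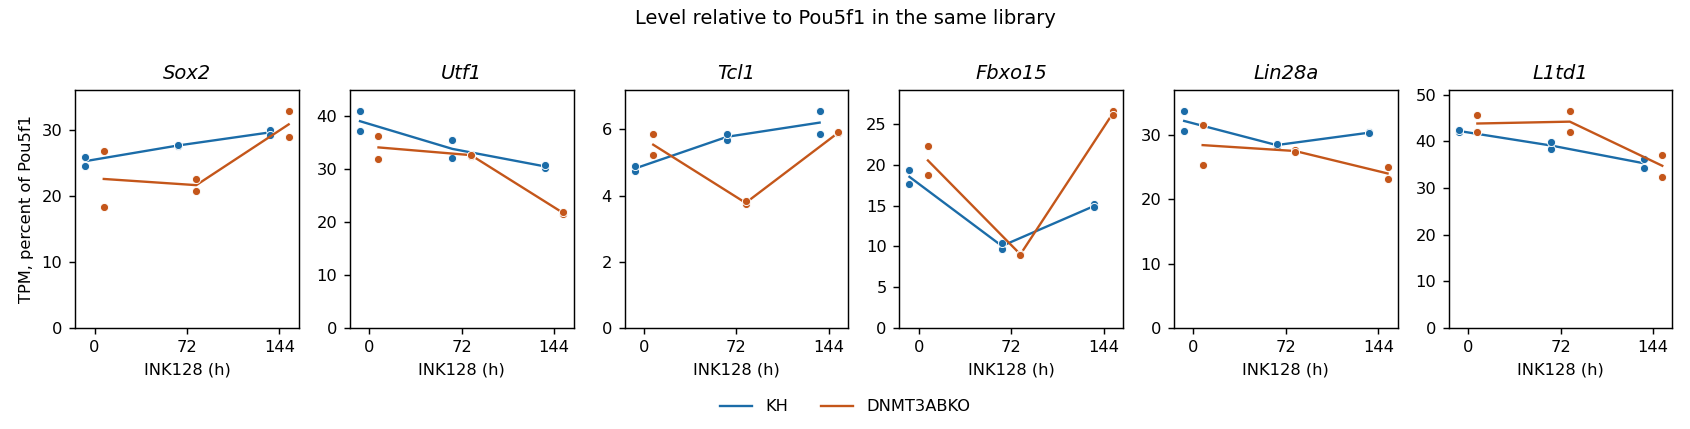
TPM of 6 core genes as a percentage of Pou5f1 TPM in the same library (vertical axes, from 0) at 0, 72 and 144 h of INK128 (horizontal axes), with 1 point per library and a line through the group means, for KH (blue) and DNMT3ABKO (orange) cells. In DNMT3ABKO cells Fbxo15 goes from 9.10 and 8.95% at 72 h to 26.6 and 26.1% at 144 h while Utf1 drops to 21.5 and 21.8%.

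Over the 12 libraries the genes fell into loose groups, described here by Pearson correlation of log2(TPM + 1) without a test, since libraries share line and time. Sall4 and Tdh were closest (r = 0.954), and Pou5f1 correlated with both at 0.869. Fbxo15 ran opposite to Utf1 (r = -0.881) and L1td1 (r = -0.798). Among 7559 other protein-coding genes with at least 10 TPM on average, those most like Pou5f1 were Prpf40b (r = 0.985), Aldh2 (0.984) and Rara (0.982). Those most like Sall4 were Nup133 (0.987), Cuedc2 (0.981) and Espl1 (0.980), and those most like Tdh were Pcif1 (0.986), Angel2 (0.985) and Gnpda1 (0.984). Utf1 was most like Ehmt1 (0.977), Cnot8 (0.961) and Igf1r (0.948), Tcl1 most like Gjc1 (0.971), and Fbxo15 most like Hist1h2aa (0.940), Id1 (0.936) and Stk35 (0.933). For Sox2 the closest gene was Frg1 (0.975), for Lin28a Nisch (0.972), for Gdf3 Mpzl2 (0.973) and for L1td1 Ctdsp1 (0.954).

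The genes around the core set were taken from lists of their partners and pathways. Of 22 genes whose products work with OCT4 and SOX2, 10 rose and 3 fell in KH cells at 72 h and 9 rose and 3 fell in DNMT3ABKO cells, with median log2 fold changes of 0.23 and 0.20. Under median-ratio scaling KH cells had 9 rises and 5 falls, and DNMT3ABKO cells 7 of each, so there the balance toward rises was lost. The polycomb gene Phc1 rose most in DNMT3ABKO cells (1.16), and Tcf7l1, a repressor of the core genes, fell most in both lines (-0.59 and -0.74 in KH and DNMT3ABKO cells). At 144 h, 10 rose and 1 fell in KH cells and 8 rose and 4 fell in DNMT3ABKO cells. Under median-ratio scaling this was 9 rises and 2 falls in KH cells and 8 rises and 7 falls in DNMT3ABKO cells. Of the 22, 8 were called lower and 0 higher in DNMT3ABKO than in KH cells at 144 h (9 lower and 1 higher under median-ratio scaling), with Sall1, a relative of Sall4, lowest (-0.74). The list's median line difference there was -0.21, beside -0.04 for all genes. For comparison, the 10 naive network factors had 10 rises in KH cells and 7 rises and 1 fall (Nanog, -0.49) in DNMT3ABKO cells at 72 h, and 5 were called lower in DNMT3ABKO cells at that time, the lowest Tbx3 (-1.02).

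Of 15 genes of the let-7 pathway, which LIN28A controls, 4 rose and 3 fell in KH cells at 72 h and 4 rose and 3 fell in DNMT3ABKO cells (falls of 6 and 7 genes under median-ratio scaling). Without that scaling these counts were near the shares of all tested genes. Tut4, the uridylyltransferase that LIN28A recruits to the let-7 precursor, rose most in both lines (0.75 and 0.91). Hmga2, a known let-7 target, fell most at 144 h against 0 h, by -1.52 in KH and -1.83 in DNMT3ABKO cells. Between the lines at 144 h 6 of the 15 were lower and 0 higher in DNMT3ABKO cells, the lowest Mycn (-0.75). The levels of let-7 itself were not analysed here.

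Tdh stood apart from the list of threonine, glycine and serine genes. Of 13 of these that passed the filter, 2 rose and 8 fell in KH cells at 72 h, and 3 rose and 8 fell in DNMT3ABKO cells, and the list's median change was -0.57 in KH and -0.41 in DNMT3ABKO cells on the log2 scale. The serine synthesis gene Psat1 fell most in both lines (-2.50 and -2.19). At 144 h 1 rose and 8 fell in KH cells and 2 rose and 6 fell in DNMT3ABKO cells, and the largest rise in both was that of Gcat (0.29 and 0.44), the enzyme that acts on the product of TDH. Tdh and Gcat thus were called higher at 144 h in both lines, while 8 of the 13 in KH and 6 in DNMT3ABKO cells were called lower.

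The GDF3 ligand signals through the receptors used by Nodal. Of 13 genes of this pathway that passed the filter, 5 rose and 4 fell in KH cells and 7 rose and 5 fell in DNMT3ABKO cells at 72 h. Tdgf1, the co-receptor, rose most in both lines (0.96 and 1.70), and Gdf1 fell most in KH cells (-1.06) and the antagonist gene Lefty2 in DNMT3ABKO cells (-1.22). At 144 h Tdgf1 remained the largest rise (1.06 and 1.68) and Furin, a protease that processes such ligands, was the largest fall (-0.99 and -1.33). Of 6 AKT and TCL1 family genes that passed the filter, 1 rose and 1 fell in each line at 72 h, Mtcp1, the relative of Tcl1 (0.64 and 0.66), and Akt1 (-0.89 and -0.98). Of 7 genes of the SCF ubiquitin ligase, in which F-box proteins such as FBXO15 act, 1 rose and 2 fell in each line at 72 h, with Skp1a, which links F-box proteins to the ligase, falling most (-0.70 and -0.78), and 4 fell in each line under median-ratio scaling.

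The paralogs of the core factors had larger median changes than the core genes, and 2 of them (Sall1 and Lin28b) also stand in the lists of partners and of the let-7 pathway. Of 11 SOX, POU, SALL and LIN28 relatives that passed the filter, 7 rose and 2 fell in KH cells at 72 h and 8 rose and 1 fell in DNMT3ABKO cells, with median log2 fold changes of 0.42 and 0.77. Sox1, a neural relative of Sox2, rose most in both (2.13 and 2.26) from at most 0.599 TPM at 0 h. In the step from 72 to 144 h, 7 rose and 1 fell in KH cells, whereas 0 rose and 5 fell in DNMT3ABKO cells. The difference in that step was called lower in DNMT3ABKO cells for 8 of the 11 and higher for 0, with Sox1 lowest (-1.48). At 144 h 6 were lower in DNMT3ABKO cells, and Sall2 was lowest (-1.65).

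As the lines differ in DNA methyltransferases, the promoter sequences of the core genes were examined for CpG, the dinucleotide that these enzymes methylate. Methylation itself was not measured in these libraries. RefSeq windows of 300 bases around the transcription start (GRCm38.p6) were found for 6 of the 10 genes, Pou5f1, Sox2, Lin28a, Utf1, Tcl1 and L1td1, and windows for Sall4, Fbxo15, Gdf3 and Tdh were not used here. The windows held 11, 27, 10, 17, 11 and 14 CpG respectively, beside a median of 7 and quartiles of 3 and 20 over all 32851 windows. All 6 were above the median, and of these only Sox2 was above the upper quartile. The RefSeq start of Sox2 lies 410 bases upstream of the annotated start. The parts upstream of both the RefSeq and the annotated start are shown, with CpG in capitals, for Tcl1 and Utf1, whose changes under mTORi differed between lines, and for Pou5f1, chosen after its values had been seen as a gene with no called difference. They are chr12:105222794-105222987 on the minus strand for Tcl1, chr7:139943606-139943788 on the plus strand for Utf1 and chr17:35505782-35506017 on the plus strand for Pou5f1.
Tcl1: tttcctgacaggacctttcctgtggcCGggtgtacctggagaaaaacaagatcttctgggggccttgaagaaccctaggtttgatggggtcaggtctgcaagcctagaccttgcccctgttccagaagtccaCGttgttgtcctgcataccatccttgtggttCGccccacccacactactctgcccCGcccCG
Utf1: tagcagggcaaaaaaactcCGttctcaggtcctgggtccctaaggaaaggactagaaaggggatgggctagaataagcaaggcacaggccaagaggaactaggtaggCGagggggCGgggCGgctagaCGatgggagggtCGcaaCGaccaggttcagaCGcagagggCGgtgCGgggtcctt
Pou5f1: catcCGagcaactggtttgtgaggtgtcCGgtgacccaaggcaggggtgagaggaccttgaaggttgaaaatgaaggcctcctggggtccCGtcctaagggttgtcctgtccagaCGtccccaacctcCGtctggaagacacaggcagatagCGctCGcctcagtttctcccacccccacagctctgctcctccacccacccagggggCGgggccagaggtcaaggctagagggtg
The Tcl1 part held 5 CpG in 194 bases, the Utf1 part 10 in 183 bases and the Pou5f1 part 8 in 236 bases. Both strands of the 6 windows were searched for the octamer ATGCAAAT, the SOX motifs CATTGTT and CTTTGTT, the E-box CACGTG, and an octamer within 10 bases of a SOX motif. None of the 6 windows held any of these, which occur in 1.74%, 9.36%, 7.15% and 0.0122% of all windows. The absence of these letters from a window says nothing about binding elsewhere, such as at distal enhancers.

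**Figure D5:**
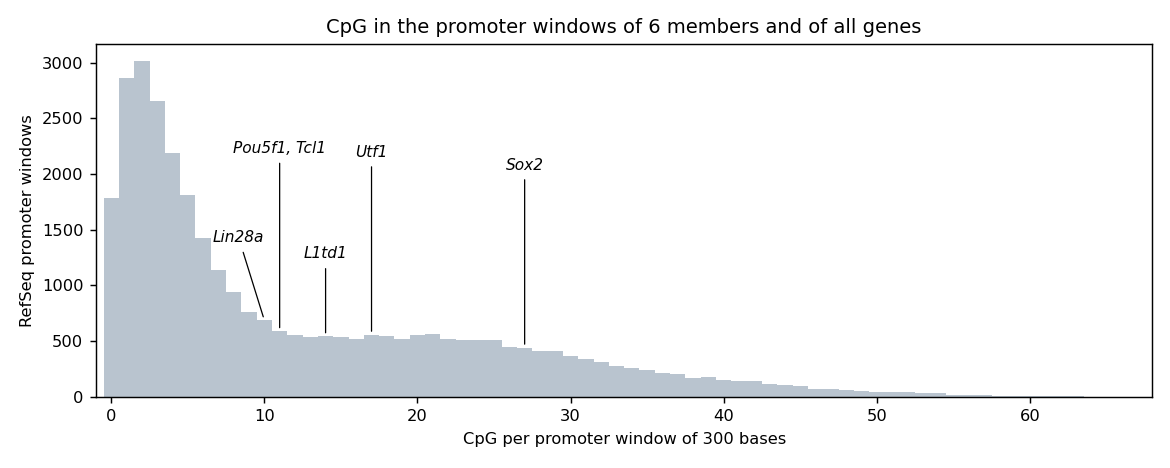
Number of RefSeq promoter windows (vertical axis) by the count of CpG in a window of 300 bases (horizontal axis), with the 6 core genes in the table marked. The marked genes lie between 10 (Lin28a) and 27 (Sox2) CpG, above the median of 7.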

How the data were processed

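Total RNA was depleted of ribosomal RNA by the authors, with ERCC spike-in RNA added, and their reads were mapped by STAR on mm10 and summarised per GENCODE gene by StringTie. The files deposited by the authors give TPM per gene for single libraries, which add up to 1000000 in each. ERCC sequences are not among the genes listed, so TPM here carries no absolute scale. In each file 9 to 16 rows held an identifier listed before, and their values were added. Gene positions were taken from the files and are given on mm10, 1-based.

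The analysis used log2(TPM + 1), which understates changes of low genes, over the 15727 of 54446 identifiers whose mean reached 1 TPM. limma 3.58.1 (R 4.3.3; lmFit and eBayes with trend) was fitted to the 6 groups together, which share 1 estimate of the spread. The threshold was 0.05 for p adjusted by Benjamini-Hochberg across all tested genes. TPM are not counts, so no count model was applied. The contrasts were those between times within each line, between lines at each time, and between lines in the 72 and 144 h responses, and the difference in the step from 72 to 144 h was added after the data had been seen. The limma fit was run on simulated data with known changes, for the contrast of KH cells at 72 h against 0 h only.

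The members and all gene lists were chosen with earlier results of these data known. All 10 members are named, with at most the called gene of largest rise and of largest fall from each list in a reported contrast, the 3 genes most like a member (protein-coding, mean of 10 TPM or more, predicted genes left out), genes that overlap or copy a member, and Dnmt3a and Dnmt3b. Some genes that this rule names are not reported here. The study states that the time points of a biological replicate were processed in parallel, so replicate numbers were taken as a possible pairing within a line. Deviations of same-numbered samples from their group means correlated between -0.104 and 0.0996 within a line and up to 0.336 between lines. The value of 0.336 was that between the 0 h groups of KH and DNMT3ABKO cells, and no block across the lines was fitted. The block of replicate number within each line is an alternative, given beside a result where it changed a call. The lists cover partners of OCT4 and SOX2, the let-7 pathway, threonine and glycine use, Nodal signalling, AKT and TCL1, the SCF ligase, paralogs, the naive network, and markers of ES cells, fibroblasts and differentiated lineages. As alternatives, 0.1 TPM was used as pseudocount, the filter was dropped, libraries were scaled by median ratio, fibroblast markers were taken out of the total, only the groups of a contrast were fitted, array weights or a replicate block were added, and each library was left out in turn. Promoter sequences are from RefSeq (GRCm38.p6). Python 3.11.15, pandas 2.3.3, NumPy 2.4.6 and matplotlib 3.10.9 were used.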

Additional observations from a re-analysis of the deposited data

Results flagged for a closer look

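Responses of 3 core genes were called as different between the lines by the test of the difference itself (DNMT3ABKO minus KH, limma, log2 scale ± SE). For the 72 h response this was Tcl1, at -0.78 ± 0.10 (adjusted p = 0.00200), with both DNMT3ABKO libraries at 72 h below all KH libraries at that time. For the 144 h response it was Fbxo15, at 0.65 ± 0.10 (adjusted p = 0.00318). For the step from 72 to 144 h, a contrast added after the data had been seen, they were Fbxo15 at 0.92 ± 0.10 (adjusted p = 0.000438), Tcl1 at 0.49 ± 0.10 (adjusted p = 0.0192) and Utf1 at -0.48 ± 0.11 (adjusted p = 0.0315). With a replicate block the step difference was not called for Tcl1 (adjusted p = 0.0611) or Utf1 (adjusted p = 0.0826), each was called in 5 of the 12 fits that left out 1 library, and Utf1 is among the 3 genes by this call alone. The step and the responses share the 72 h or 144 h libraries, so these values are not independent of each other.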

How the results depend on the processing

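Of 120 values (10 genes in 12 contrasts), all 120 kept direction and call with a pseudocount of 0.1 TPM and with fibroblast markers left out of the total (which are too small a share to move any value by much), 114 without the filter, 97 under median-ratio scaling, 106 with only the groups of the contrast, 109 with array weights and 117 with the replicate block. Leaving out 1 library kept 98 to 118. No called value changed sign, and 42 of 2280 values did so without being called before or after (at most 0.18 in size). Median-ratio scaling moved the median of all genes by -0.11 for DNMT3ABKO 72 h against 0 h. The number of core genes called between lines at 72 h, 2 as reported, was 1 without the filter, 5 with only the groups of the contrast and 6 with array weights. For the difference in the step it was 3, and 5 under median-ratio scaling, 5 with only the groups of the contrast, 5 with array weights and 1 with the replicate block (Fbxo15). In KH cells from 72 to 144 h it was 1, and 3 with only the groups of the contrast and 4 with array weights. Under median-ratio scaling it was 1 between lines at 0 h (0 as reported) and 2 for each difference in response (1 as reported; for the 144 h response 1 higher and 1 lower). Leaving out 1 library gave 1 to 4 between lines at 72 h, 0 to 5 at 0 h, 1 to 5 in the step, 1 to 2 in KH cells from 72 to 144 h, and 1 to 2 for the differences in the 72 h and 144 h responses. The replicate block, within each line, lost Lin28a in KH cells at 72 h (adjusted p = 0.0531) and, in the step, Tcl1 (adjusted p = 0.0611) and Utf1 (adjusted p = 0.0826), and changed no other call. Fits with fewer groups or weights draw on another estimate of the spread. Why the other counts moved was not tested. The share of all genes called in each setting is not given beside these counts, so they are no result about the core genes as a set. What depth limits could not be assessed, since TPM does not retain it.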
